A study of Mus musculus with 4 samples.

Results

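The genes described here encode the enzymes that place or remove methyl groups on histone lysines outside Polycomb repressive complex 2 (PRC2), with a pair of core subunits of the COMPASS methyltransferase complexes. They were taken by name: 37 gene symbols were listed, and every probe set annotated to exactly 1 of them was read on the 4 arrays. Of these 37 genes, 35 were named on the array, by 90 probe sets, among 18193 named genes in all. Signals of Suv39h1 and Ash1l were not analysed here. A further gene, Kdm4d, a demethylase for histone H3 lysine 9 (H3K9), was below the floor on all 4 arrays (5.71, 2.38, 24.5 and 1.89), which leaves 34 genes with a measured signal.

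The samples were mouse embryonic stem (ES) cells, cultured cells with the capacity to give every embryonic tissue, and each of 4 groups was read on 1 Affymetrix expression array. The groups were ES cells with a constitutive Ring1B knockout (KO), wild-type ES cells as their control, ES cells at day 4 of a conditional double KO of Ring1A and Ring1B, and wild-type ES cells as the control of those. Ring1B (gene symbol Rnf2) and Ring1A (gene symbol Ring1) are the catalytic RING-finger subunits of Polycomb repressive complex 1 (PRC1). The double KO was induced with OHT, because cells that lack both genes constitutively could not be kept. The strain, the number of clones and the day of the control are not given in the sources used here. All values below are scaled signals, linear intensities after each array was multiplied to a common trimmed mean. Signals under 36.6, the 40th percentile of named probe sets, were set to that floor before differences were taken. Log2 differences are taken as KO array minus control array, by their labels, and a gene is called apart at 2-fold. With 1 array per group there is no replicate, no test and no p-value, and precision is limited by how few arrays there are.

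Rnf2, the gene named in both KO labels, was not lower on the array labelled Ring1B KO at its brightest probe set. It read 2579.7 on the array labelled Ring1B control, 2775 on the array labelled Ring1B KO, 2182 on that labelled double KO control and 1986 on that labelled double KO. Ring1 read 146, 164, 44.7 and 55.6 in that order, with both arrays of the double KO pair near the floor. The dimmer Rnf2 probe sets above the floor differed by −0.21, 0.93 and 0.16 in the Ring1B comparison. In the double KO comparison they differed by −0.40, 0.46 and −0.18. Whether these probe sets lie in the deleted parts is not known here, so arrays are named by their labels. The 12 ES cell markers, Pou5f1 and Nanog among them, were above the floor on every array. Of 10 endoderm markers 7, 9, 8 and 4 were above it, and of 12 fibroblast markers, which a feeder layer would bring, 11, 11, 12 and 10, in the same order of arrays.

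Methyl groups on histone lysines mark the state of a gene. Trimethylation of H3K4 lies at active and CpG-rich promoters and is written by the SET1 and MLL (Kmt2) enzymes, which need the core subunits Ash2l and Wdr5. H3K9 methylation marks silent chromatin, H3K36 methylation lies over transcribed gene bodies, H3K79 methylation is written by Dot1l, and H4K20 methylation by the Kmt5 enzymes. The lysine demethylases (Kdm) remove these marks, and Kdm6b removes the H3K27 methylation that PRC2 writes. Kdm2b also belongs to a variant PRC1 that it brings to unmethylated CpG-rich DNA. Kdm3a and Kdm4c are known as genes bound by Oct4 in ES cells, where they keep H3K9 methylation low at pluripotency genes.

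Of the genes at least 1.5-fold apart from their control in the double KO comparison, the promoters of 5, those with an entry in the RefSeq table (GRCm38.p6), are shown so that higher and lower genes can be set side by side. Each run is the 250 bases before the annotated start, 5′ to 3′ on the gene's own strand, and capitals mark the GC box GGGCGG or its reverse complement CCGCCC. Where a gene has several annotated starts the window farthest upstream is given, and for Kdm4c both windows are. The array does not tell which start was used. The H3K9 demethylase gene Kdm3a lies on the minus strand (chr6:71632918-71633167), Kdm4c (chr4:74242247-74242496 and chr4:74251629-74251878), which acts on H3K9 and H3K36, on the plus strand, and the H3K4 demethylase gene Kdm5b (chr1:134559928-134560177) on the plus strand. These 3 genes had higher signals in the double KO comparison.
Kdm3a: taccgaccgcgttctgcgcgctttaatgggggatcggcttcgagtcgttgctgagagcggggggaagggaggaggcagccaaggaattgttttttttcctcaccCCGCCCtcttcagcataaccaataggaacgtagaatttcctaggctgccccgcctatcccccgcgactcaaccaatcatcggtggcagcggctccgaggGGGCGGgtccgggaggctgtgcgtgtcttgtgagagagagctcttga
Kdm4c, upstream start: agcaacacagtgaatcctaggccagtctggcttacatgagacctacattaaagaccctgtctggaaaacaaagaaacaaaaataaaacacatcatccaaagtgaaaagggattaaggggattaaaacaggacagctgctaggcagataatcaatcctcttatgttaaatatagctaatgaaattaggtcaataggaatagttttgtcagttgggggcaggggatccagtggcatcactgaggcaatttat
Kdm4c, downstream start: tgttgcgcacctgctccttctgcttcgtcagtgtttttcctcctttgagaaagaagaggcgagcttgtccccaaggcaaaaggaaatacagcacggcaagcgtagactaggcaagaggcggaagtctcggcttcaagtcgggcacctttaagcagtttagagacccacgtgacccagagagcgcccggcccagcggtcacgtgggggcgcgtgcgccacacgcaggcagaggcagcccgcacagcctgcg
Kdm5b: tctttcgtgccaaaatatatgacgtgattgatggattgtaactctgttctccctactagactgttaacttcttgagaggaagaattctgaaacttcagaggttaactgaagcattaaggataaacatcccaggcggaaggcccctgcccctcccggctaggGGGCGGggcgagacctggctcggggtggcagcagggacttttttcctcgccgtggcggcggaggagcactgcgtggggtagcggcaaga
The H3K4 demethylase gene Kdm1b (chr13:47043249-47043498, plus strand) and the H3K4 methyltransferase gene Setd7 (chr3:51560824-51561073, minus strand) had lower signals.
Kdm1b: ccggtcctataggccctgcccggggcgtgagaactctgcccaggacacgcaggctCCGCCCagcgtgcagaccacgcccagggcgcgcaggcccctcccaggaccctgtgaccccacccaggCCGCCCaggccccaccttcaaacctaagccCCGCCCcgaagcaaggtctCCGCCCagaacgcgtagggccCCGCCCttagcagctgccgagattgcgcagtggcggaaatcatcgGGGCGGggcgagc
Setd7: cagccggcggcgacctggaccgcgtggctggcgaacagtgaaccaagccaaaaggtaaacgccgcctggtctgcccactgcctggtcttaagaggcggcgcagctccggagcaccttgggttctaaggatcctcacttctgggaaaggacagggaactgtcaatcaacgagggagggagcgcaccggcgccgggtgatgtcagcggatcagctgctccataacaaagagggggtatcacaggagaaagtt
The GC box stood 6 times in the Kdm1b window, 2 times in that of Kdm3a, 1 time in that of Kdm5b, and 0 times in the Setd7 window and both Kdm4c windows. Matches were therefore found in higher and lower genes alike. Of 36 windows of 25 of the listed genes, 25 (69.4%) held a GC box, against 32.7% of the 32851 windows of all genes in the table. The median number of CpG dinucleotides was 21.5 in the windows of the listed genes and 6 in all windows. All windows came from 27025 genes, not only those on the array or above the floor, and a gene can have several windows. The sets are thus unlike, and whether the listed genes differ from other expressed genes was not tested. The upstream Kdm4c window had 0 CpG and the downstream one 19. The octamer ATGCAAAT, searched on both strands and not overlapping the GC box, was found in 0 of the 36 windows and in 1.60% of all windows, which says only that these letters are not in these stretches.

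In the array labelled double KO, most of the larger differences from its control were in demethylases. Kdm4c was 2.18-fold higher, and it was the 1 gene of 34 past 2-fold, against 13.0% of all genes tested. At least 1.5-fold apart were 7 of 34, against 28.7% of all genes. Kdm4c, Kdm3a, Kdm5b and Kmt2e were the 4 higher (8.90% of all genes), and Kdm6b, Kdm1b and Setd7 the 3 lower (19.8%). With signals as deposited the split was 3 higher and 4 lower, and with quantile normalization it was 4 and 2. By class, 5 of 12 demethylases were at least 1.5-fold apart and 1 of 19 methyltransferases was (4 or 5, and 1 or 2, over the scalings tried). Kmt2e, a SET domain protein kept as a class of its own, is counted in neither. Between the control arrays, 8 of 12 demethylases and 10 of 19 methyltransferases were at least 1.5-fold apart, against 43.2% of all genes. At 2-fold it was 6 demethylases and 3 methyltransferases there, against 20.4%. Whether the classes differ was not tested in any comparison. In the double KO comparison the share of the 34 genes past either mark, in both directions together, was below that of all genes.

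**Figure D1:**
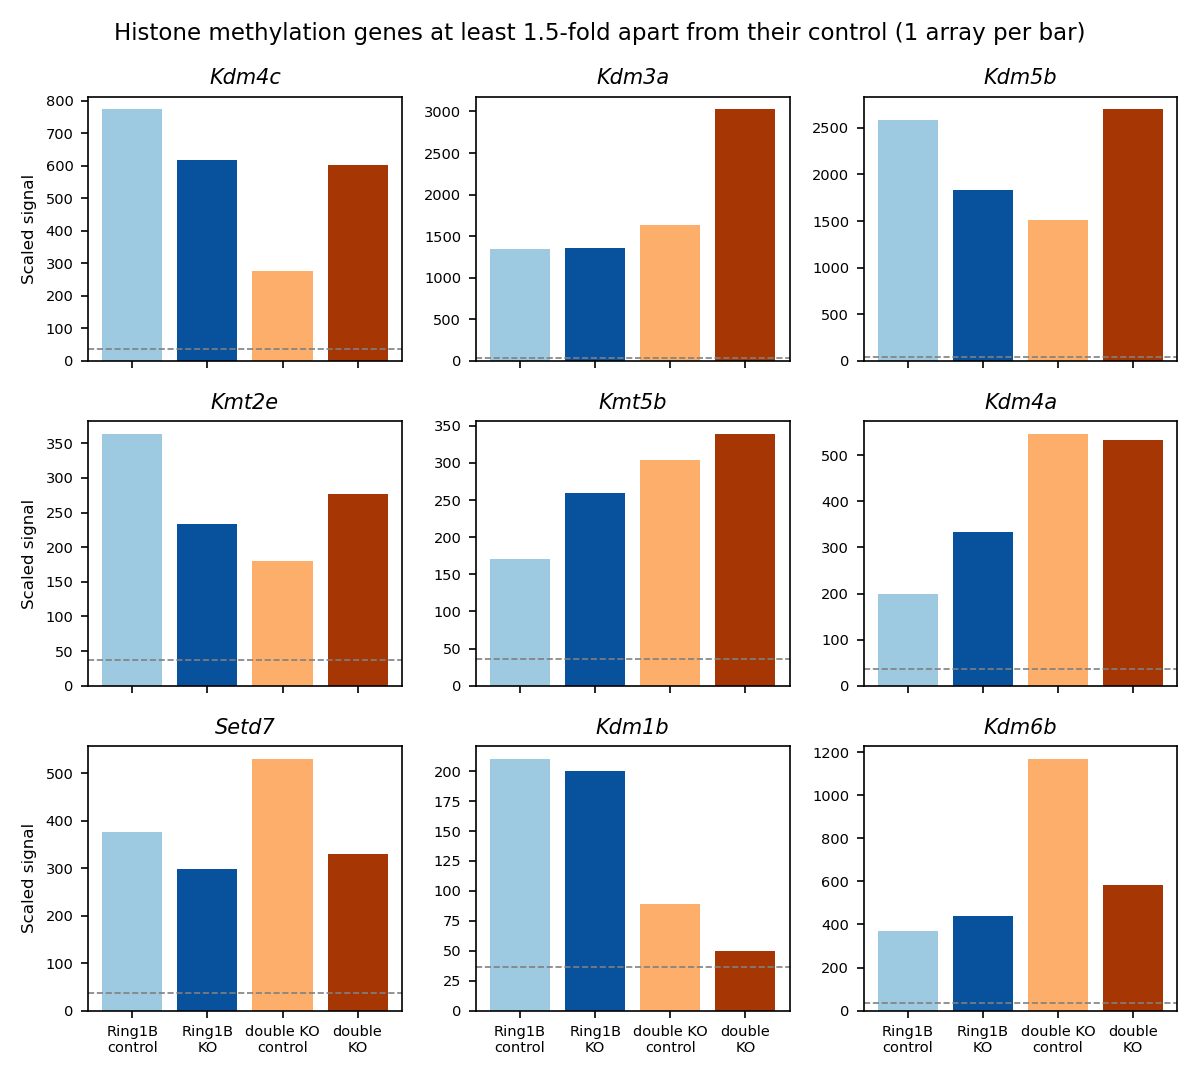
Scaled signal (linear axis from 0) of the 9 genes at least 1.5-fold apart from their control in at least 1 KO comparison, 1 bar per array and 1 array per group, with the floor of 36.6 as a dashed line. The array labelled double KO has the highest bar for Kdm3a (3029), while for Kdm4c and Kdm5b the array labelled its control has the lowest bar (277 and 1506).

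Kdm3a removes methyl groups from H3K9. It read 1343 on the Ring1B control array, 1358 on the array labelled Ring1B KO, 1636 on the double KO control array and 3029 on the array labelled double KO. The last array stood above the other 3, which lay close together. The gene was 1.85-fold higher than in its own control (log2 difference 0.89, from 0.76 to 0.98 over the scalings tried) and differed by 1.17 from the other control array. It was read by 1 probe set.

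Kdm4c, which removes H3K9 and H3K36 methylation, read 774, 618, 277 and 602 in the same order of arrays, at its 1 probe set. The low array was the one labelled double KO control, and the other 3 were of similar height. The log2 difference of 1.12 from the own control, which lay between 1.00 and 1.21 over the scalings and passed 2-fold in all but the deposited signals, turned to −0.36 against the other control array.

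Kdm5b, which removes methyl groups from H3K4, read 2579, 1833, 1506 and 2701. The array labelled Ring1B KO and the array labelled double KO control were the low ones, so that the gene was 1.41-fold lower in the Ring1B comparison and 1.79-fold higher in the double KO comparison. Its dimmer probe sets went from 197 to 293, from 37.5 to 122 and from 44.4 to 42.8 in the double KO pair, so 3 of 4 were higher. Against the Ring1B control array, the array labelled double KO differed by only 0.07.

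The pluripotency gene Pou5f1, which encodes Oct4, read 5988, 4879.6, 4304 and 7581 in the same order. It was thus 1.76-fold higher in the double KO comparison. Of the 12 ES cell markers 10 were higher there and 2 lower (9 and 3 with signals as deposited), beside 5605 of 12384 genes higher. Their median log2 difference was 0.66, against −0.05 over all genes. Their summed signal was 64659.7, 54445, 52889 and 69749.7 in the same order, so the double KO control had the lowest sum. In the double KO pair endoderm markers had lower signals, summing to 5085 and 1892, as did fibroblast markers, summing to 7347 and 3495. These differences stand beside every result of the double KO comparison. In bulk RNA, fewer cells of a type and less RNA per cell cannot be told apart. The part of these markers in the differences of the histone methylation genes was not tested.

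Among the lower genes, Kdm6b, the H3K27 demethylase, read 371 and 441 in the Ring1B pair and 1171 and 585 in the double KO pair. The high array was the one labelled double KO control. The gene was 2.00-fold lower in the array labelled double KO, just short of the mark before rounding (log2 differences of −0.91 to −1.13 over the scalings). Its other probe sets were lower as well, from 488 to 343 and from 78.8 to the floor. Against the Ring1B control array Kdm6b was higher by 0.66.

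Kdm1b, an H3K4 demethylase related to Kdm1a and known from oocytes, read 210.5, 200.3, 89.5 and 49.6 at its 1 probe set. Both arrays of the double KO pair lay below both arrays of the Ring1B pair, and the lowest was near the floor. It was 1.80-fold lower than in its own control (log2 difference −0.85, and −0.47 with signals as deposited) and differed by −2.09 from the Ring1B control array. Setd7, which adds 1 methyl group to H3K4, read 376, 297, 530 and 329.6, and was 1.61-fold lower in the array labelled double KO. The double KO control was its high array, and the other 3 lay between 297 and 376. A dimmer Setd7 probe set read 84.8 and 63.5 in that pair.

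In the array labelled Ring1B KO, 0 of 34 genes were 2-fold apart, against 6.17% of all genes tested (3.57% higher and 2.60% lower). At least 1.5-fold apart were 3 of 34, against 18.8% of all genes. Kdm4a and Kmt5b were the 2 higher (9.66% of all genes) and Kmt2e the 1 lower (9.11%). Kdm4a, which removes H3K9 and H3K36 methylation, read 199, 334, 546 and 532. It was 1.68-fold higher in the array labelled Ring1B KO, and the Ring1B control was its low array. Its other probe set was below the floor on every array. Kmt5b, which places further methyl groups on H4K20, read 171, 259.8, 303 and 339, with the Ring1B control again low, and was 1.52-fold higher. All 5 of its probe sets were higher, by 0.20 to 0.60. In that comparison the summed endoderm markers went from 4747 to 15019 and the summed fibroblast markers from 18177 to 25589. Of 12 ES cell markers 10 were lower, beside 6409 of 12366 genes. The part of these markers in these differences was not tested.

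Kmt2e, an MLL family member with a SET domain, read 364, 234, 179.6 and 277. The Ring1B control was high and the double KO control low, and the 2 arrays labelled KO lay between them. Relative to the control it was therefore 1.56-fold lower under the label Ring1B KO and 1.54-fold higher under the label double KO. It was the 1 gene of 34 at least 1.5-fold apart in opposite directions in both comparisons, against 8.39% of all genes. Of its 3 dimmer probe sets above the floor, all were lower in the first comparison, with differences of −0.03 to −0.32, and in the second 2 were higher and 1 lower.

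**Figure D2:**
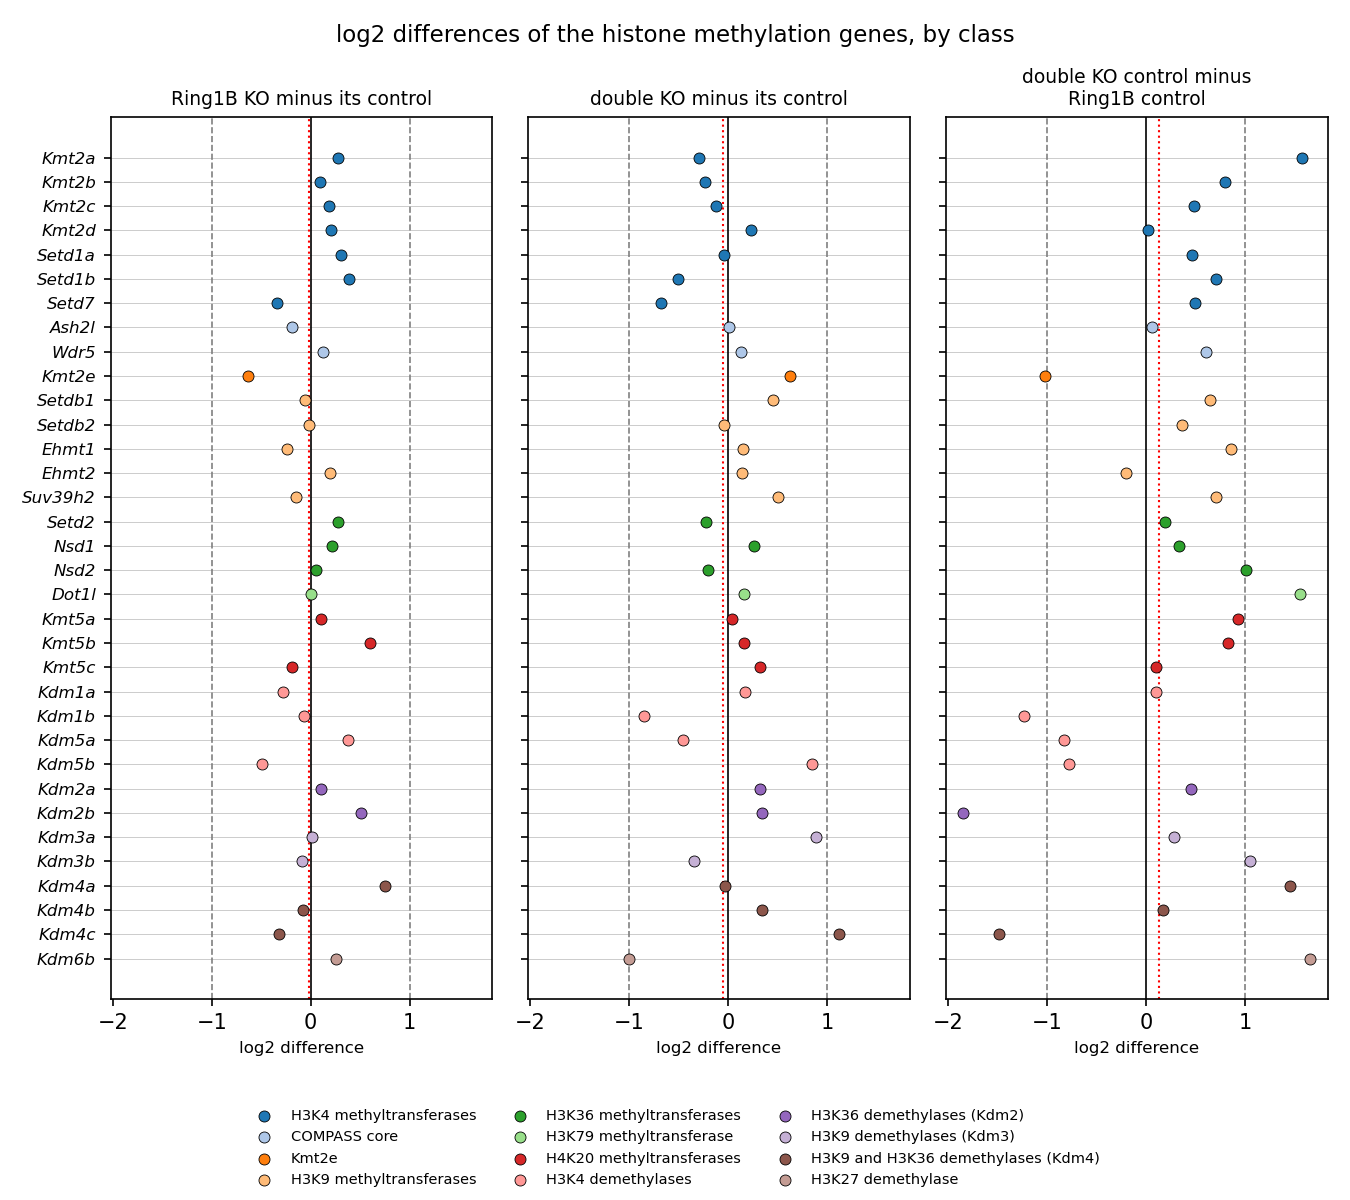
Log2 difference (x axis) of each of the 34 histone methylation genes above the floor, coloured by class, in the Ring1B KO comparison, the double KO comparison and between the control arrays. Dashed lines mark 2-fold and the red dotted line the median of all genes. In the first 2 panels only Kdm4c passes a dashed line (1.12), whereas 10 genes do between the control arrays, from −1.85 for Kdm2b to 1.66 for Kdm6b.

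Apart from Setd7, the H3K4 methyltransferases differed little from their controls. Of all 7 genes of this class, Setd7 included, 6 were higher in the array labelled Ring1B KO (median 0.20). In the array labelled double KO 6 were lower (median −0.24). It was 5 when arrays were scaled to a common median or quantile normalized, where Setd1a turned. Of all genes tested, 5957 of 12366 were higher in the first comparison and 6779 of 12384 lower in the second. All genes tested had medians of −0.02 and −0.05. Between the control arrays, 7 of 7 genes of this class were higher on the double KO control array (median 0.49), and 0 with signals as deposited. Kmt2b (MLL2) differed by 0.09 and −0.24 in the Ring1B and double KO comparisons, Kmt2c by 0.18 and −0.13, and Setd1a by 0.31 and −0.04. Kmt2a (MLL1) read 223, 269, 665 and 542, so both arrays of the double KO pair were high. Setd1b, the catalytic subunit of a SET1 complex, read 221, 288, 360.1 and 252, and was 1.43-fold lower in the array labelled double KO. Kmt2d, an enhancer methyltransferase, read 476, 549, 484 and 567, the 1 gene of this class higher in both comparisons, although its dimmer probe set was lower by at least 0.20 in the first. The core subunit Ash2l read 5780.0, 5066, 6007 and 6020.5 at its brightest probe set, and a dimmer one read 117, 123, 93.1 and 155, or 1.66-fold higher in the double KO comparison. Wdr5, the subunit that binds the MLL enzymes, read 1369.8, 1497, 2087 and 2273. The directions of both at their brightest probe sets in the double KO pair turned with the scaling.

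Of the H3K9 methyltransferases, 0 of 5 measured genes were 1.5-fold apart in either KO comparison (1 in the double KO comparison with a common median). The largest difference was in Suv39h2, which writes H3K9 trimethylation in heterochromatin, at 254, 229.5, 415 and 587 (1.41-fold higher in the double KO comparison). Setdb1, which silences endogenous retroviruses in ES cells, read 818, 786, 1284 and 1758, or 1.37-fold higher there. All 3 Suv39h2 probe sets were higher in the array labelled double KO, by 0.10 to 0.82, and 2 of 3 of Setdb1 were. Ehmt1 and Ehmt2, partners that write H3K9 dimethylation, differed by 0.15 and 0.14 in the double KO comparison and by −0.24 and 0.20 in the Ring1B comparison. Setdb2 differed by −0.02 and −0.04, signs that turn with the scaling.

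At their brightest probe sets the other methyltransferases were likewise close to their controls. Setd2, which writes H3K36 trimethylation, read 648, 787, 739.5 and 632, and the dimethyltransferase gene Nsd1 read 1021, 1181, 1286 and 1538. Of 4 Nsd1 probe sets, 3 were lower in the Ring1B comparison, and 3 were higher in the double KO comparison (−0.38 to 0.94). Nsd2 read 182, 189, 366 and 316 at its brightest probe set, but a dimmer probe set read 97.9 and 47.5 in the double KO pair. All 4 Nsd2 probe sets were lower in that pair, by −0.21 to −1.04. In the Ring1B comparison 3 of 4 were lower, down to −0.72. Dot1l read 173, 174, 507 and 567, even within each pair and apart between pairs (2.93-fold between the controls). Of the H4K20 enzymes, Kmt5a, which adds the first methyl group, read 599.6, 643, 1138 and 1165. It differed by 0.10 and 0.03, the second turning with the scaling, while a dimmer probe set was lower by −1.12 in the Ring1B comparison. Kmt5c differed by −0.19 and 0.32.

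The remaining demethylases followed no common direction. Kdm1a (LSD1), which removes H3K4 methylation, read 4200.1, 3465, 4515 and 5069, with differences of −0.28 and 0.17 that its second probe set repeated at −0.29 and 0.14. Kdm5a, another H3K4 demethylase, read 575, 749, 324 and 235. It differed by 0.38 and −0.46, and its 5 probe sets above the floor split 3 to 2 in the first comparison and 2 to 3 in the second. Kdm2b, the H3K36 demethylase of the variant PRC1, was 1.42-fold higher in the array labelled Ring1B KO (1952 to 2767) and 1.26-fold higher in the double KO comparison (543 to 686). Both of its probe sets were higher in both comparisons, by 0.31 to 0.59. Kdm2a, its paralog, read 189, 204, 259.6 and 324, with differences of 0.11 and 0.32. Kdm3b, the paralog of Kdm3a, read 667, 628, 1377 and 1083, with differences of −0.09 and −0.35. Neither was 1.5-fold apart from its control, nor was Kdm4b, which differed by −0.08 and 0.34.

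Several probe sets of a gene on the same arrays are the only repeated readings here. In the double KO comparison 22 of the listed genes had more than 1 probe set above the floor, and in 12 of them all differences had 1 sign (54.5%, against 64.7% of all such genes). In the Ring1B comparison it was 13 of 23 (56.5%, against 62.1%). The median spread between the lowest and the highest probe set of a gene was 0.43 in the double KO comparison and 0.37 in the Ring1B comparison, against 0.39 and 0.32 over all genes.

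**Figure D3:**
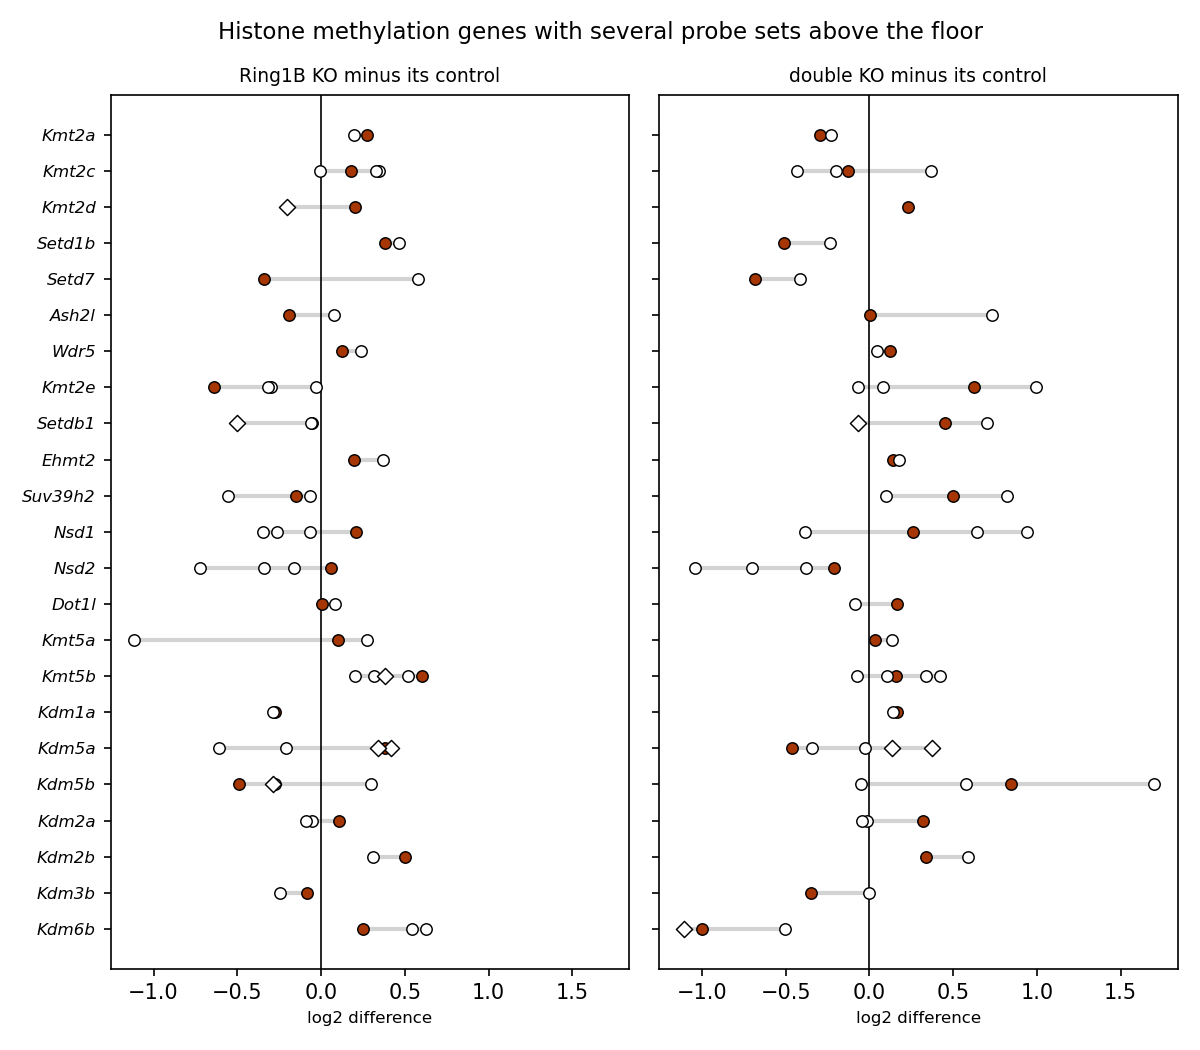
Log2 difference (x axis) of every probe set above the floor for the 23 histone methylation genes with several. Filled points are the probe set used for the gene, open points the others, diamonds are bounds with 1 array at the floor, and grey bars span the lowest to the highest. In the double KO comparison the probe sets of Kdm6b and Nsd2 all lie below 0 and those of Suv39h2 and Kdm2b all above, while those of Nsd1 run from −0.38 to 0.94.

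The 2 KO comparisons share no array, and their differences were opposite in sign for 20 of 34 genes (58.8%), against 62.1% of all genes. The rank correlation of the 2 differences was −0.35 over the 34 genes and −0.37 over all genes, as a description over points from the same 4 arrays. The listed genes were in this respect like the whole array.

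The arrays labelled as controls, both of wild-type cells, differed more from each other than either KO array did from its control. Between them 10 of 34 genes were 2-fold apart, against 20.4% of all genes, 6 higher on the double KO control array (12.2% of all genes) and 4 lower (8.19%). At least 1.5-fold apart were 20 of 34, against 43.2% of all genes, 14 higher (26.2%) and 6 lower (17.0%). Of 19 methyltransferases 18 were higher there, with a median log2 difference of 0.65, against 0.13 over all genes. With signals as deposited, where the pairs stand on different scales and the median of all genes was −1.32, 0 of the 19 were higher and 26 of the 34 genes turned direction. Kdm6b (3.16-fold), Kmt2a (2.98-fold), Dot1l (2.93-fold) and Kdm4a (2.74-fold) were the highest, and Kdm2b (3.60-fold) and Kdm4c (2.80-fold) the lowest. The 2 probe sets of Kdm2b were both lower but disagreed in size, at −1.85 and −0.33. Of the 23 genes with several probe sets, 13 had 1 sign in all of them (56.5%, against 54.7% of all such genes).

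The difference between control arrays bears on the genes named above. Only 8 of 34 genes in the double KO comparison (against 36.5% of all genes) and 5 of 34 in the Ring1B comparison (against 29.5%) differed more from their own control than the control arrays did from each other. Of the 7 genes at least 1.5-fold apart in the double KO comparison, Kdm3a, Kdm5b and Setd7 did so. Of the 3 in the Ring1B comparison, 0 did. For Kdm5b the margin was small (0.84 against −0.78). With signals as deposited, the control arrays differed by −1.36 (Kdm3a), −2.42 (Kdm5b) and −1.15 (Setd7), more than in the double KO comparison. The median of all genes was −1.32 there, because the pairs stand on different scales. These values include that offset, so this setting cannot tell how the control arrays differ for single genes.

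Among genes that work with these enzymes, and among further enzymes of the same kinds, those 2-fold apart are given here, beside shares of 6.17% of all genes in the Ring1B comparison and 13.0% in the double KO comparison. Of 5 partners of Kdm2b, Bcor, a corepressor and subunit of the variant PRC1, was 2.40-fold higher in the array labelled Ring1B KO and 2.34-fold lower in the array labelled double KO (168, 402, 756 and 322). Bcor differed 4.51-fold between the control arrays, and against the other control array its KO differences turned to −0.91 and 0.94. Pcgf1, Skp1 and Usp7 lay within 1.29-fold of their control in both KO comparisons, and Bcorl1 was near the floor. Of 12 Kdm1 partners, Phf21a, a reader of unmethylated H3K4, was 2.17-fold higher in the double KO comparison (144 to 313) and 0 were 2-fold apart in the Ring1B comparison. Of 13 COMPASS partners, 12 H3K9 partners and readers and 6 Dot1l partners, 0 were 2-fold apart in either KO comparison. The H3K9 partners had 10 of 11 measured genes higher in the array labelled double KO, with a median of 0.41 (8 of 11 with signals as deposited), beside 5605 of 12384 genes and a median of −0.05 over all genes. The largest difference was in Cdyl, a chromodomain corepressor, at 1.93-fold (757 to 1464). Between the control arrays, 9 of 12 H3K9 partners were lower on the double KO control array (median −0.37, against 0.13 over all genes). Of 24 other methyltransferases and demethylases, Prdm16 was 2.56-fold higher in the array labelled Ring1B KO and 4.06-fold lower in the array labelled double KO (68.3, 175, 152 and 37.3), where the last array was near the floor. Phf2, an H3K9 demethylase, was 2.57-fold lower in the array labelled double KO (159 to 61.9). Prdm9 was below the floor on all arrays. At 1.5-fold in the double KO comparison, where 28.7% of all genes were apart, 7 of 12 Kdm1 partners (3 higher and 4 lower) and 4 of 11 H3K9 partners (all higher) were apart. So were 3 of 6 Dot1l partners, 2 of 5 Kdm2b partners, 3 of 13 COMPASS partners and 8 of 22 measured other enzymes. The H3K27 demethylase Kdm6a went the other way from Kdm6b, at 228 and 410 in the double KO pair (1.80-fold higher). Its double KO control signal was 2.34-fold below that of the Ring1B control. Against the Ring1B control array Kdm6a turned to −0.38 and Kdm6b to 0.66.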

How the data were processed

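Transcript levels of 4 mouse ES cell samples were measured on 4 Affymetrix MOE430 2.0 arrays, 1 per group. The authors deposited 1 signal intensity per probe set and array, made with MAS5 per the submitters' processing notes; its version and scaling are not given in the sources used here. The 2%-trimmed means of the deposited intensities were 500.0 on both arrays of the Ring1B pair and 160.4 and 147 in the double KO pair, so every array was multiplied to the common trimmed mean of 277. Of 45101 probe sets, 64 control probe sets were left out, 34945 named 1 gene, 932 named several and 9160 named none. The floor was the 40th percentile (36.6), and no pseudocount was added. A gene was read by its brightest probe set, chosen by its mean over all 4 arrays on the log2 scale. Genes above the floor on at least 1 array of a comparison were tested against 2-fold. By the rule for named genes, values on all 4 arrays are given for genes at least 1.5-fold apart in a KO comparison, at the floor, or with probe sets of opposite sign and one at least 1.5-fold apart, and for the gene with the largest difference of each substrate class. Up to 3 genes per related list and direction are named at 2-fold or more. Other named genes (Kmt2a, Kmt2d, Setd1b, Wdr5 and Kdm1a with all values, and Pcgf1, Skp1, Usp7, Bcorl1, Cdyl, Prdm9 and Kdm6a) were chosen after their values were seen. The arithmetic was tested on simulated data. Python 3.11.15, pandas 2.3.3 and numpy 2.4.6 were used. The genes and lists were chosen with earlier results of these data known. Alternatives were other scalings, floors, probe set rules, fold marks and the other control array.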

Additional observations from a re-analysis of the deposited data

Results flagged for a closer look

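Kmt2e differed from its control in opposite directions in the KO comparisons, by −0.64 on the log2 scale in the array labelled Ring1B KO and by 0.63 in the array labelled double KO. With 1 array per group the difference between the comparisons was not tested. The control arrays themselves differed by −1.02 for this gene, and when the control arrays were exchanged the KO comparisons gave 0.38 and −0.39.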

How the results depend on the processing

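No paired analysis was possible because each group has 1 array and no test was made; leaving out an array would leave no comparison. In the Ring1B comparison, no gene of the 34 passed 2-fold; at 1.5-fold 2 were higher and 1 lower, and against the other pair's control array 4 were higher and 5 lower at 2-fold, 16 were 1.5-fold apart and the median was −0.31. The mean over probe sets left 0 at 1.5-fold. In the double KO comparison the number higher was 0 with deposited signals, 4 at 1.5-fold and 7 against the other control array. The number lower was 1 with deposited signals, quantile normalization or a 20th percentile floor, and 3 at 1.5-fold or against the other control array, where 18 were 1.5-fold apart and the median was 0.46 (0.0054 with deposited signals). Between control arrays deposited signals gave 0 higher, 21 lower, a median of −1.18 and 22 genes with probe sets of 1 sign, which follows from the pairs' different scales. The mean over probe sets gave 3 higher, 13 at 1.5-fold and a median of 0.20, and 1.5-fold gave 14 higher. Related genes past the mark numbered 1 (60th percentile floor) and 5 (1.5-fold) in the Ring1B comparison, 2 and 27 in the double KO comparison, and 56 (deposited), 9 (mean over probe sets) and 28 (1.5-fold) between control arrays. Against the other control array, single genes turned to 0.38 (Kmt2e), −0.22 (Kmt5b) and −0.71 (Kdm4a) in the Ring1B comparison, and to −0.39 (Kmt2e), −0.36 (Kdm4c) and 0.66 (Kdm6b) in the double KO comparison. Between control arrays, deposited signals turned Kmt2a (−0.063), Kmt2b (−0.84), Setd1b (−0.93), Wdr5 (−1.03), Setdb1 (−0.99), Ehmt1 (−0.78), Suv39h2 (−0.93), Nsd2 (−0.63), Dot1l (−0.087), Kmt5a (−0.72), Kmt5b (−0.82), Kdm3b (−0.59) and Kdm4a (−0.18). The mean over probe sets turned Setdb1 (−0.028) and Suv39h2 (−0.44), and leaving out cross-matching probe set types turned Setdb1 (−0.30). Except for the scales, the cause was not tested. Signals near the floor, as of Kdm1b, Nsd2's dimmer probe sets and Prdm16, limit what could be measured.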
